A study of Mus musculus with 16 samples.

Results

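Glutamate metabolism was described by 9 genes out of the 45706 in the count table, picked by gene name: glutamine synthetase (Glul), glutamate dehydrogenase (Glud1), both aspartate aminotransferases (Got1, Got2), both alanine aminotransferases (Gpt, Gpt2), ornithine aminotransferase (Oat) and the carriers Slc1a5 and Slc38a2. All 9 passed the low-count filter. They were measured in 8 samples of mouse quadriceps muscle with a skeletal-muscle-specific loss of NAMPT (KO) and 8 wild-type samples (WT), and NAMPT makes the precursor of NAD in the salvage route. The sources used here do not give the driver of the deletion or the age and sex of the animals. The genes were proposed with KO and WT results of these libraries in view, so the comparison of genotypes below is a description and no independent evidence.

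Glutamate is the hub through which muscle moves amino nitrogen. Aminotransferases pass amino groups between glutamate and other amino acids, glutamate dehydrogenase joins glutamate to the citric acid cycle with NAD or NADP as cofactor, and glutamine synthetase fixes ammonia to glutamate as glutamine. Muscle is known to export nitrogen as glutamine and alanine. GOT1 in the cytosol and GOT2 in mitochondria are also part of the malate-aspartate shuttle, which carries the electrons of NADH into mitochondria.

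The libraries held 16065394 to 51881258 estimated counts, with RNA integrity numbers of 8.2 to 8.8. Nampt checked the labels: it ran from 60.4 to 88.7 CPM (counts relative to the scaled size of the library) in KO and from 126 to 161 CPM in WT (log2 fold change -0.95, standard error (SE) 0.07, edgeR adjusted p = 9.68e-07). The tissue label was met by muscle fibre markers (Acta1, Ckm, Myh4, Des, Ttn), which summed to between 112307 and 148977 CPM. Markers of other cell types were present at low levels, with fibro-adipogenic markers (Pdgfra, Dcn, Col1a1) at 427 to 786 CPM, endothelial markers at 196 to 251 CPM and adipocyte markers (Adipoq, Plin1, Cidec) at 12.1 to 33.3 CPM. KO libraries 1, 3, 5 and 8 stood apart from the other KO libraries in RNA that lacks a poly(A) tail (mean log2 CPM of 13 genes 2.22 to 2.49, against at most 2.00), while WT spanned 1.64 to 2.25. In bulk tissue, fewer cells of a type and less RNA per cell cannot be told apart.

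The upstream sequence is shown for 4 of the genes: Glud1 and Oat, whose mRNAs varied together most closely, Got1, which had the most motif matches, and Glul, which varied most within WT. Each run is the 250 bases before the RefSeq start of the gene, read 5′ to 3′ on the gene's own strand (RefSeq, GRCm38.p6). They lie at chr14:34310477-34310726 (plus strand) for Glud1, chr7:132576399-132576648 (minus strand) for Oat, chr19:43524606-43524855 (minus strand) for Got1 and chr1:153899679-153899928 (plus strand) for Glul. Capitals mark matches, on either strand, to 8 searched motifs.
Glud1: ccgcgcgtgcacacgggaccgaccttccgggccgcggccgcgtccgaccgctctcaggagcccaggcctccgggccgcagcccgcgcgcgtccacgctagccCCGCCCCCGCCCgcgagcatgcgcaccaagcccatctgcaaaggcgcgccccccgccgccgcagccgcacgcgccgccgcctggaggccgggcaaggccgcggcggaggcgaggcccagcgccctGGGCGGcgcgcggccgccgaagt
Oat: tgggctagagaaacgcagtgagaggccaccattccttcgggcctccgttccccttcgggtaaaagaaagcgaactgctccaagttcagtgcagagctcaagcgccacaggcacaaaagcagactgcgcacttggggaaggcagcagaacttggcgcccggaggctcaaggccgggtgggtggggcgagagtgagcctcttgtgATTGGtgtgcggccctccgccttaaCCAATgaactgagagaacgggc
Got1: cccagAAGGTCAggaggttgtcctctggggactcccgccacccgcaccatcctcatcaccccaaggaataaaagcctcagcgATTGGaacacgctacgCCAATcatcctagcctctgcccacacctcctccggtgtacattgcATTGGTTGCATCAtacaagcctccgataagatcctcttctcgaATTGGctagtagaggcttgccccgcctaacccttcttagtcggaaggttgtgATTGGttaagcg
Glul: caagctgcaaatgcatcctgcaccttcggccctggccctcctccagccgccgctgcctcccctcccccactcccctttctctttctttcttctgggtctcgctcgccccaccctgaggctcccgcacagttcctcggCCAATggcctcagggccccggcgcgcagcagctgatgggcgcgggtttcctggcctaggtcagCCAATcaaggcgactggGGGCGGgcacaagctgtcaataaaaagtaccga

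The motifs were the TATA box TATAAA, the GC box GGGCGG, the CCAAT box CCAAT, the C/EBP-ATF composite TGATGNAA, the glucocorticoid receptor half-site TGTTCT, the FOXO motif TGTTTAC, the ERR half-site AAGGTCA and the NRF1 core GCGCATGCG. No match shared bases with another motif in these 4 windows. Glud1 held 3 GC boxes in a window of 82.0% GC, against a median of 52.0% over 27025 RefSeq genes. Oat held 2 CCAAT boxes and no GC box, so the pair with the closest mRNA pattern shared none of the searched motifs. Got1 held 5 CCAAT boxes, 1 C/EBP-ATF composite and 1 ERR half-site, and these 3 motifs occur in 34.5%, 3.53% and 4.05% of all windows of this length. Glul held 2 CCAAT boxes and 1 GC box, the latter found in 32.9% of all windows. The glucocorticoid receptor half-site, the FOXO motif and the NRF1 core, found in 16.2%, 3.09% and 1.49% of all windows, were in 0 of the 7 windows of these genes. A match describes letters only and is no evidence of binding.

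Per exonic length, the aspartate aminotransferases had the highest means of the 9 mRNAs. In WT, Got1 had 252 ± 18.3 TPM and Got2 205 ± 8.83 TPM (a level per exonic length, scaled to the same sum in each library; SD, n = 8), and their ranges did not overlap. Glul followed at 185 ± 77.0, Oat at 142 ± 11.6 and Gpt2 at 108 ± 21.9 TPM. Ranges overlapped between Got2 and Glul, between Glul and Oat and between Oat and Gpt2, but not between Gpt2 and Glud1. Glul, from 120 to 326 TPM in WT, also spanned the whole Got1 range of 226 to 283 TPM. Glud1 at 50.7 ± 4.26 TPM and Slc38a2 at 30.7 ± 7.62 TPM stood apart from the gene above and below them. Gpt and Slc1a5 were lowest and overlapped each other, at 11.3 ± 1.43 and 11.1 ± 2.37 TPM. The mitochondrial alanine aminotransferase mRNA therefore stood far above the cytosolic one: the ratio of Gpt2 to Gpt on the TPM scale was 9.61 ± 2.37 in WT and 7.17 ± 1.74 in KO (SD, 8 libraries each). The lengths join all annotated exons of a gene, 2539 bases for Got1 and 4824 for Got2, and may differ from the expressed mRNA. In CPM, without the length, Got2 was above Got1 in WT (means of 431 and 279 CPM). The order of these 2 genes thus depends on the lengths used.

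**Figure D1:**
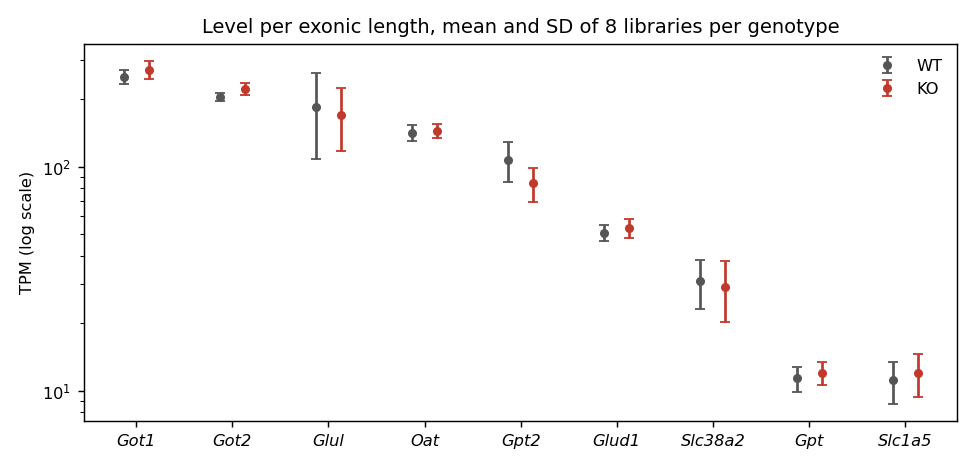
Level per exonic length (TPM, log axis) of the 9 genes, as mean and SD of 8 WT (grey) and 8 KO (red) libraries. Got1 at 252 TPM in WT is highest, and Gpt and Slc1a5 at 11.3 and 11.1 TPM are lowest, and the SD bars of WT and KO overlap for each gene.

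Across the 9 genes, 0 passed the edgeR test over all genes, where 0.0435% of 13792 tested genes did (0.0218% higher in KO and 0.0218% lower), and DESeq2 and limma also called 0 of them. Without adjustment 1 of the 9, Gpt2, had p below 0.05, as did 9.57% of the whole table (4.02% higher in KO, 5.55% lower). KO exceeded WT for 6 of the 9 (median log2 fold change 0.05) and for 7146 of the 13792 genes (median 0.00). Intervals at the 95% level stayed within 1.5-fold up or down for 8 of the 9, all but Gpt2, and for 86.2% of the whole table.

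Glul makes glutamine from glutamate and ammonia (ENSMUSG00000026473, chromosome 1, 153899944 to 153909723, plus strand). It ran from 175 to 399 CPM in KO with a median of 245, and from 182 to 429 CPM in WT with a median of 228. The high values came from 3 libraries, WT 3 at 429, WT 7 at 413 and KO 4 at 399 CPM, while no other library passed 269 CPM, and the genotypes overlapped, with 3 KO libraries below the WT range. KO and WT differed by -0.12 on the log2 scale (SE 0.20, edgeR adjusted p = 0.903). It was 0.13 without KO libraries 1, 3, 5 and 8, 0.02 without WT 3 and 0.00 with a covariate for RNA that lacks a poly(A) tail. Glul also varied against the level of that RNA (Pearson r = -0.66, permutation p = 0.00515, adjusted p = 0.139 over 27 pairs, Spearman rho = -0.54, permutation p = 0.0318, n = 16), and its part in the result was not tested. All 16 Glul values were fractional, as happens when reads are split with other transcripts. Glul shares 116 exonic bases with Teddm2 on the opposite strand, so the Glul count carries that uncertainty. Teddm2 itself held 1295 counts over all 16 libraries.

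Glud1 encodes the mitochondrial enzyme that interconverts glutamate and 2-oxoglutarate (ENSMUSG00000021794, chromosome 14, 34310727 to 34345265, plus strand). It spanned 86.9 to 107 CPM in KO, median 96.1, and 79.8 to 106 CPM in WT, median 93.3. The ranges overlapped, with 2 KO libraries above the WT range and 2 WT libraries below the KO range, and KO and WT differed by 0.05 on the log2 scale (SE 0.06, edgeR adjusted p = 0.831). Its interval, 95.1% to 113% of WT, is among the narrowest of the 9.

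Oat turns ornithine into a precursor of glutamate and proline in mitochondria (ENSMUSG00000030934, chromosome 7, 132557478 to 132576398, minus strand). It spanned 132 to 159 CPM in KO, median 149.7, and 126 to 163 CPM in WT, median 144. KO was 100.3% of WT with an interval from 93.0% to 108%, the closest match between genotypes among the 9 genes. Its log2 fold change was 0.00, and it ran from -0.02 to 0.03 as single libraries were left out.

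Got1 and Got2 encode the cytosolic and the mitochondrial aspartate aminotransferase. Got1 (ENSMUSG00000025190, chromosome 19, 43499752 to 43524605, minus strand) ran from 234 to 333 CPM in KO with a median of 298, and from 254 to 296 CPM in WT with a median of 283. In 5 of 8 KO libraries Got1 was above the highest WT library, and in 1, KO 8, it was below the lowest. Got2 (ENSMUSG00000031672, chromosome 8, 95864134 to 95888547, minus strand) ran from 413 to 502 CPM in KO with a median of 474, and from 368 to 462 CPM in WT with a median of 430. Again 5 of 8 KO libraries exceeded every WT library, and the lowest value of all was WT 3.

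The log2 fold change of Got1 was 0.09 (SE 0.06, edgeR adjusted p = 0.704), and that of Got2 was 0.10 (SE 0.05, adjusted p = 0.561). The interval for Got2 ran from 99.5% to 115% of WT. Endothelial markers (Pecam1, Cdh5, Kdr, Tek, Emcn) summed to 217 to 251 CPM in KO and 196 to 226 CPM in WT, with none at 0 in any library. All 5 were higher in KO, 2 of 5 at an unadjusted edgeR p below 0.05 (as were 4.02% of the whole table) and 0 called. Got2 went with them at r = 0.62 (permutation p = 0.00961, adjusted p = 0.121 over 72 pairs, rho = 0.55, permutation p = 0.0293, 16 libraries), 0.08 within KO and 0.88 within WT. Got1 had r = 0.56 with them (permutation p = 0.024, adjusted p = 0.159, rho = 0.60, permutation p = 0.0166), 0.51 within KO and 0.51 within WT. The part of these markers in the values of Got1 and Got2 was not tested. The log2 ratio of Got1 to Got2 on the TPM scale was 0.28 ± 0.10 in KO and 0.30 ± 0.12 in WT (SD, 8 libraries each), so the genotypes differed in this ratio by less than the SD within either. Got2 values were fractional in every library, and its processed pseudogene Got2-ps1 held 2325 counts over all 16 libraries, so a small share of reads may be placed on either.

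Gpt and Gpt2 encode the alanine aminotransferases of cytosol and mitochondria, which join pyruvate and glutamate to alanine and 2-oxoglutarate. Gpt2 (ENSMUSG00000031700, chromosome 8, 85492576 to 85527560, plus strand) ran from 156 to 275 CPM in KO with a median of 203, and from 207 to 320 CPM in WT with a median of 258. In KO 4 of 8 libraries were below the lowest WT library and 3 of 8 WT libraries were above the highest KO library, while the rest overlapped. The KO mean was 205 CPM with a coefficient of variation of 19.5%, and the WT mean 263 CPM with one of 16.9% (n = 8 each).

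The log2 fold change of Gpt2 was -0.36 (SE 0.12), or 77.9% of WT with an interval from 65.6% to 92.6%, and it did not pass the test over all genes (edgeR adjusted p = 0.307). Over 26 alternative fits the log2 fold change stayed between -0.43 and -0.31 and the adjusted p between 0.115 and 0.527. The unadjusted p was under 0.05 in all 27 fits, which reuse the same libraries and are no independent support. Pericyte markers (Rgs5, Pdgfrb, Cspg4) summed to 252 to 288 CPM in KO and 220 to 267 CPM in WT, with none at 0 in any library. All 3 of 3 were higher in KO at an unadjusted edgeR p under 0.05, as were 4.02% of the whole table, and 0 were called. Gpt2 ran against them over the 16 libraries (r = -0.64, permutation p = 0.00842, adjusted p = 0.121 over 72 pairs, rho = -0.60, permutation p = 0.0159). It was -0.37 within KO, -0.35 within WT and -0.47 without KO 5 and KO 6, the libraries farthest from the Gpt2 median. Slc38a2 had r = -0.60 with these markers (permutation p = 0.0145, adjusted p = 0.145, rho = -0.49, permutation p = 0.054), -0.78 within KO and -0.68 within WT. The part of pericyte markers in the Gpt2 difference was not tested.

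Gpt (ENSMUSG00000022546, chromosome 15, 76695716 to 76699686, plus strand) spanned 12.2 to 16.9 CPM in KO, median 15.9, and 11.4 to 17.5 CPM in WT, median 14.6. The KO range fell inside the WT range, and KO and WT differed by 0.06 on the log2 scale (SE 0.08, edgeR adjusted p = 0.871). The log2 ratio of Gpt to Gpt2 on the TPM scale was -2.80 ± 0.37 in KO and -3.23 ± 0.32 in WT (SD, 8 libraries each), with 3 KO libraries above every WT library. That ratio carries the same Gpt2 difference and adds no separate evidence.

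Slc1a5 and Slc38a2 carry neutral amino acids, glutamine among them, across the cell membrane. Slc1a5 (ENSMUSG00000001918, chromosome 7, 16781340 to 16798274, plus strand) ran from 14.7 to 26.9 CPM in KO with a median of 22.1, and from 13.0 to 24.8 CPM in WT with a median of 20.8. Slc38a2 (ENSMUSG00000022462, chromosome 15, 96687392 to 96699730, minus strand) ran from 60.0 to 153 CPM in KO with a median of 122, and from 76.1 to 164 CPM in WT with a median of 113. Both overlapped broadly between genotypes, with log2 fold changes of 0.09 (standard error 0.13, edgeR adjusted p = 0.889) and -0.09 (standard error 0.19, adjusted p = 0.923). Without KO library 6 the log2 fold change of Slc38a2 was -0.00, and without KO 7 it was -0.17.

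**Figure D2:**
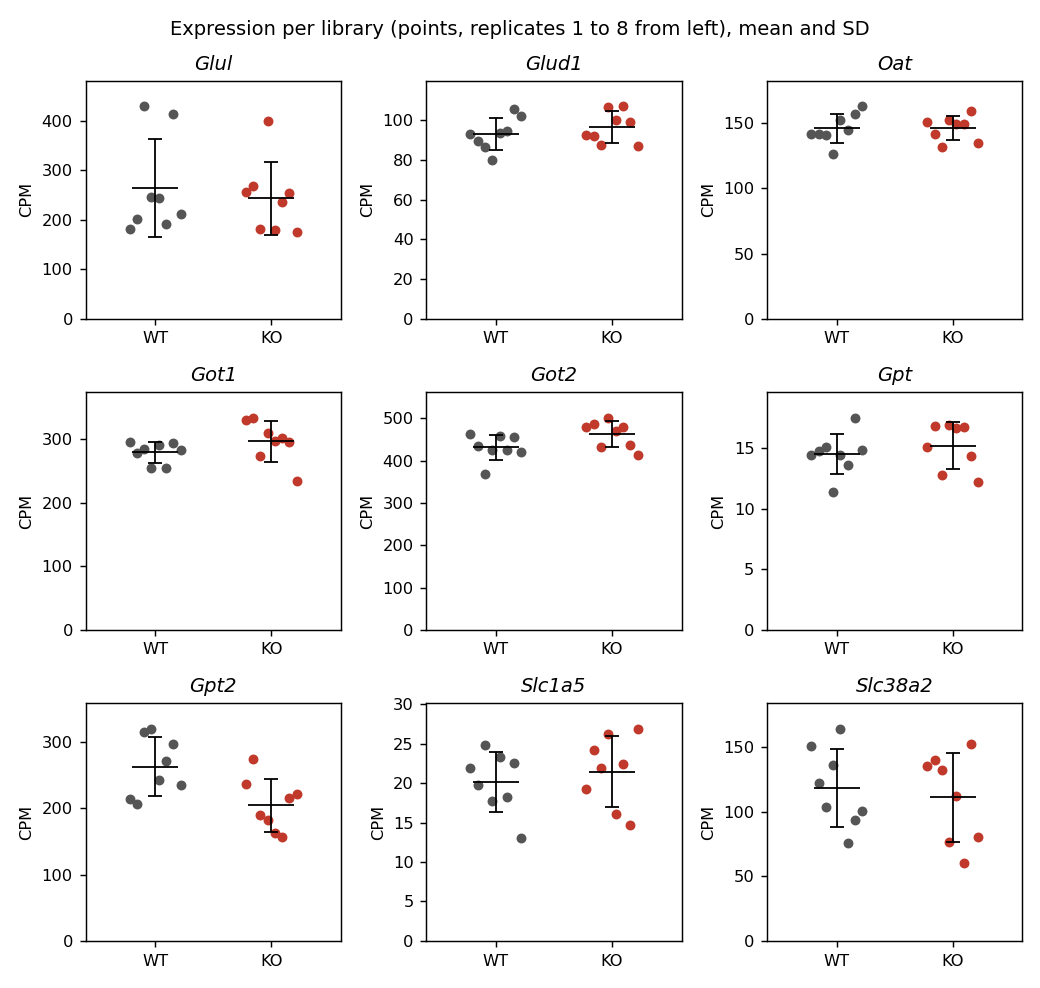
CPM of each of the 9 genes in every WT (grey) and KO (red) library, with mean and SD of 8 libraries and replicates 1 to 8 from left to right. Gpt2 shows 4 KO libraries below all WT libraries, and Glul shows 3 high libraries, WT 3, WT 7 and KO 4.

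The genes differed in how far they varied between libraries of 1 genotype. The coefficient of variation in WT was 37.5% for Glul, 25.6% for Slc38a2, 18.8% for Slc1a5 and 16.9% for Gpt2. These exceeded 98.7%, 96.7%, 93.3% and 91.2% of the 6944 tested genes with a mean of at least 10 CPM, whose median was 7.74%. The same 4 genes were the most variable in KO, at 30.3%, 31.1%, 20.8% and 19.5%. Got1 at 5.89%, Got2 at 7.05%, Oat at 7.80% and Glud1 at 8.87% in WT had 27.3%, 42.1%, 50.8% and 61.3% of those genes below them, and Gpt at 11.6% had 78.1%. The intervals of the KO and WT comparison were widest for Glul and Slc38a2.

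Related genes of nitrogen metabolism, 67 genes in 6 lists, had 50 tested members. Of these 0 passed with edgeR, DESeq2 or limma. Unadjusted p was below 0.05 for 3 (9.57% over the whole table), Slc38a4, Odc1 and Slc7a8, and 45 intervals stayed within 1.5-fold. For 15 of the 50, DESeq2 returned a missing adjusted p. Log2 fold changes were above 0 for 22 and below 0 for 28, with a median of -0.01.

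Among other aminotransferases 5 of 11 were tested. Bcat2 averaged 47.4 CPM in KO against 47.6 in WT. Its enzyme starts the breakdown of branched-chain amino acids by a transfer of their amino group that forms glutamate. Kyat1 and Kyat3, which act on kynurenine and on glutamine, had log2 fold changes of -0.05 and 0.10. Of the proline and ornithine genes 7 of 11 were tested. Aldh4a1, which makes glutamate from the proline route, had a log2 fold change of -0.05, 110.3 CPM in KO against 114 in WT. Odc1, which takes ornithine to polyamines, averaged 110.3 ± 34.6 CPM in KO against 151 ± 47.5 in WT (SD, 8 libraries each), log2 fold change -0.46 (SE 0.20, edgeR adjusted p = 0.477).

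All 13 genes for enzymes that use the amide nitrogen of glutamine were tested, and each interval stayed within 1.5-fold. Gfpt1, which opens the hexosamine pathway, had a log2 fold change of -0.01, and Gatb and Gatc, of the complex that makes glutaminyl-tRNA in mitochondria, -0.11 and -0.03. Of the glutathione and GABA genes 6 of 9 were tested. Gclm, a subunit of glutamate-cysteine ligase, had a log2 fold change of 0.00, Aldh5a1 of the GABA route 0.04 and Ggt7 0.10. Of the malate-aspartate shuttle and mitochondrial carriers 7 of 8 were tested. Mdh2, mitochondrial malate dehydrogenase, averaged 597 CPM in KO against 586 in WT, and Slc25a12, the aspartate-glutamate carrier of muscle, 443 and 446 CPM. Slc25a22, a mitochondrial glutamate carrier, had 12.0 CPM in KO against 13.9 CPM in WT (log2 fold change -0.23, SE 0.20, edgeR adjusted p = 0.768).

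Among 15 other amino acid carriers 12 were tested. Slc38a4, a carrier of the same family as Slc38a2, spanned 59.5 to 127 CPM in KO, median 96.4, and 81.0 to 170 CPM in WT, median 135. All 8 KO libraries were below the WT mean, yet the ranges overlapped, and the log2 fold change of -0.46 (SE 0.14) did not pass (edgeR adjusted p = 0.272). Slc38a3 had a log2 fold change of -0.13.

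**Figure D3:**
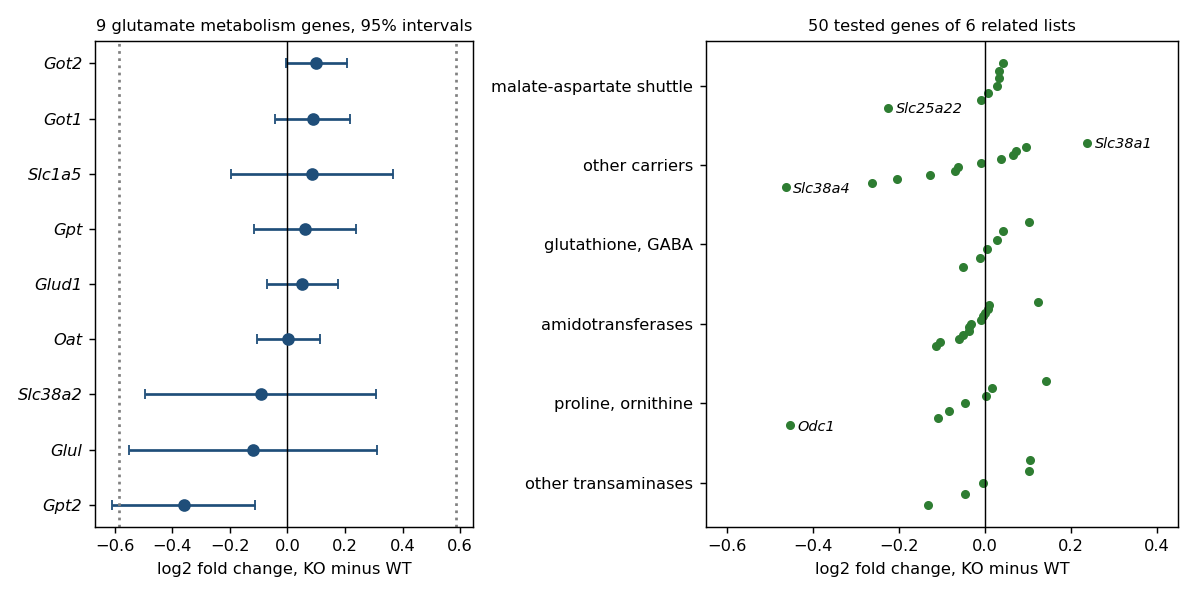
Left, log2 fold changes (KO minus WT) of the 9 genes with 95% intervals, where dotted lines mark a 1.5-fold change. Right, log2 fold changes of the 50 tested genes of 6 related lists, 1 point per gene, from -0.46 for Slc38a4 to 0.24 for Slc38a1.

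Several of the genes rose and fell together between libraries. Over the 36 pairs of the 9 genes, 5 pairs passed (permutation test of Pearson r, adjusted over the 36 pairs), all positive. Each joined Glud1, Oat, Gpt, Got1 or Got2 to another of these 5, and Glul, Gpt2, Slc1a5 and Slc38a2 were in no such pair. All points share library and scaling, and the correlations are over 16 libraries. The share of other gene pairs that would pass the same test was not computed. The 5 pairs therefore do not show that these genes vary together more than other genes do.

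The closest pair was Glud1 and Oat, both mitochondrial, with r = 0.84 (permutation p = 8e-05, adjusted p = 0.00288; rho = 0.81, permutation p = 0.00025). It was 0.77 within KO, 0.93 within WT and 0.82 without KO 6 and WT 4, the 2 libraries farthest from the median of Glud1. Glud1 and Gpt had r = 0.79 (permutation p = 0.00036, adjusted p = 0.00468; rho = 0.61, permutation p = 0.0137), and 0.66 without the same 2 libraries. Got1 and Gpt, both cytosolic, had r = 0.78 (permutation p = 0.00039, adjusted p = 0.00468; rho = 0.78, permutation p = 0.00074), and 0.62 without KO 8 and WT 4. These 3 relations were of like size within each genotype, between 0.77 and 0.93.

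Gpt and Oat had r = 0.67 (permutation p = 0.00431, adjusted p = 0.0388; rho = 0.52, permutation p = 0.0432). Without KO 8 and WT 4 it was 0.40 (permutation p = 0.16), a value that did not pass with 14 libraries, while it was 0.61 within KO and 0.76 within WT. Got1 and Got2 had r = 0.65 (permutation p = 0.00592, adjusted p = 0.0426; rho = 0.89, permutation p = 2e-05), and 0.64 without KO 8 and WT 4. It was 0.85 within KO and 0.27 within WT, a difference that was not tested, and WT 3 held the lowest Got2 at 368 CPM with a Got1 of 284 CPM. Without KO libraries 1, 3, 5 and 8 these 5 correlations were between 0.57 and 0.84, and 2 of the 36 pairs passed.

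The 9 genes were also set against 4 lists scored as the mean log2(CPM + 0.5) of their members: 14 nuclear genes of respiration, 10 slow fibre genes, 14 genes that respond to glucocorticoids or FOXO factors and 13 targets of ATF4, a factor of the amino acid response. Of 36 pairs 4 passed, all positive, and the share of other genes that would pass with these lists was not computed. Respiration genes went with Got2 (r = 0.75, permutation p = 0.00078, adjusted p = 0.0126; rho = 0.61, permutation p = 0.0131), with Glud1 (r = 0.74, permutation p = 0.00097, adjusted p = 0.0126; rho = 0.66, permutation p = 0.00632) and with Gpt (r = 0.69, permutation p = 0.00308, adjusted p = 0.0277; rho = 0.55, permutation p = 0.0307). Without the 2 libraries farthest from each gene's median these were 0.73, 0.66 and 0.48, the last with a permutation p of 0.0791 without KO 8 and WT 4. The r of Gpt was 0.88 within KO and 0.55 within WT. Oat and Got1 had r = 0.62 and 0.60 with this list and did not pass (permutation p = 0.0101 and 0.0139, adjusted p = 0.0637 and 0.0702; rho = 0.54 and 0.61, permutation p = 0.0327 and 0.0134).

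Glul was the 1 gene that passed with the glucocorticoid and FOXO genes, with an r of 0.74 (permutation p = 0.00105, adjusted p = 0.0126; rho = 0.76, permutation p = 0.00105), 0.89 within KO, 0.61 within WT and 0.73 without WT 3 and WT 7. With the same list Got1 had r = 0.60 (permutation p = 0.0156, adjusted p = 0.0702; rho = 0.60, permutation p = 0.0152) and did not pass. Nor did Gpt and Oat, both at r = 0.56 (permutation p = 0.0229 and 0.0244, adjusted p = 0.0879 for both; rho = 0.54 and 0.57, permutation p = 0.0335 and 0.0229), or Glud1 at 0.51 (permutation p = 0.0444, adjusted p = 0.145; rho = 0.40, permutation p = 0.125). Whether Glul differed from these genes in this relation was not tested. WT 7 and KO 4 were the 2 libraries with the highest score of that list, and WT 3, with the highest Glul, was in the middle of it. With respiration genes the r of Glul was -0.04 (permutation p = 0.874; rho = 0.03, permutation p = 0.926). No gene of the 9 passed with the ATF4 list or the slow fibre list. The largest r with slow fibre genes was 0.62 for Got2 (permutation p = 0.0106, adjusted p = 0.0637; rho = 0.61, permutation p = 0.0137). The largest with ATF4 targets were 0.45 for Got2 (permutation p = 0.0751; rho = 0.22, permutation p = 0.403) and 0.41 for Slc1a5 (permutation p = 0.111; rho = 0.35, permutation p = 0.181). Without KO libraries 1, 3, 5 and 8 the 4 relations that passed had r between 0.59 and 0.73 and 0 of 36 passed at n = 12.

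**Figure D4:**
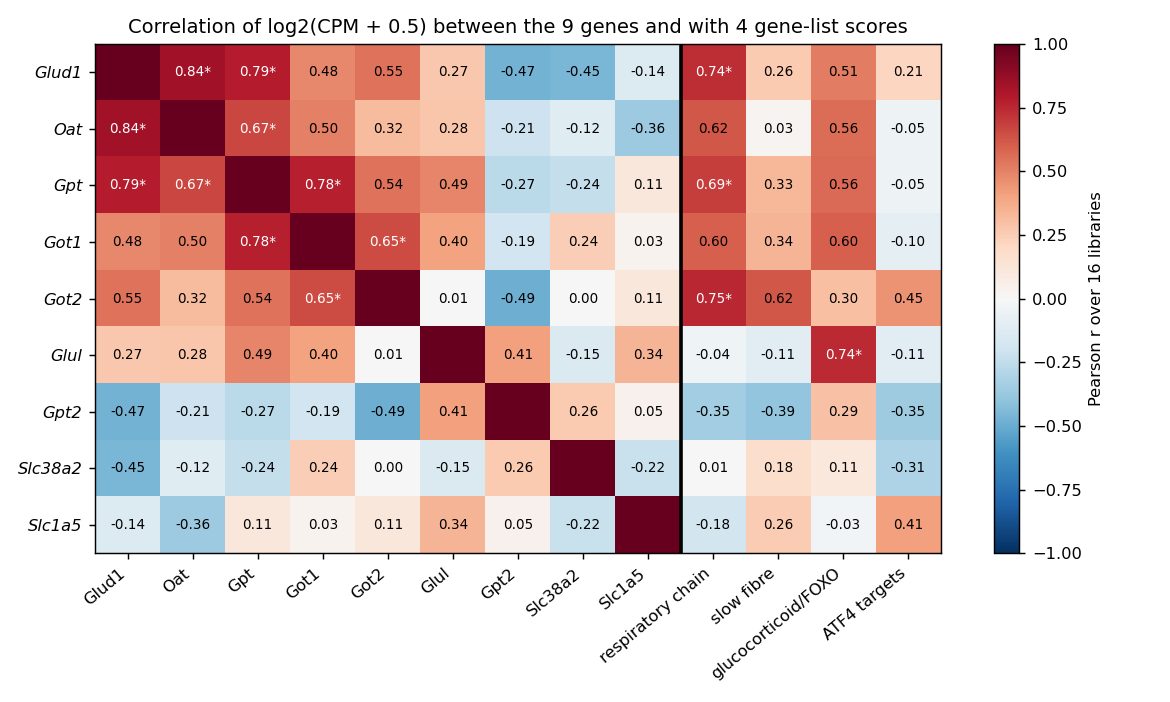
Pearson r over 16 libraries of log2(CPM + 0.5) between the 9 genes (left of the black line) and with 4 gene-list scores (right); asterisks mark an adjusted p under 0.05. The 5 gene pairs that passed lie among Glud1, Oat, Gpt, Got1 and Got2, with 0.84 for Glud1 and Oat. Other pairs of these genes did not pass, such as Got2 and Oat at 0.32. Glul has 0.74 with the glucocorticoid and FOXO list.

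**Figure D5:**
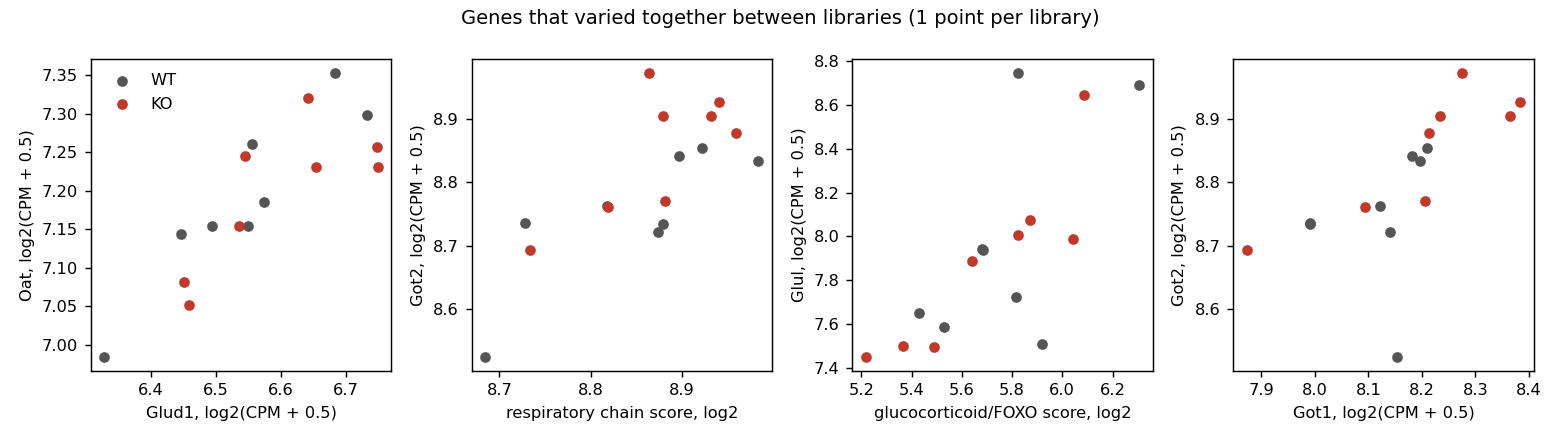
Values of 4 of these relations, 1 point per library, WT grey and KO red, on log2 axes. In the panel of Got1 and Got2 the lowest point in Got2 is WT 3, and the 5 points above every WT library in both genes are KO 1, 2, 4, 5 and 6.

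The genes most alike each of the 9 were taken from 11332 candidates by r after the genotype means were removed, over 16 libraries, and are a description since the highest of so many values is high by selection. For Oat they included Clpx, a mitochondrial protease subunit (0.96), and Gcn1l1 (0.91). For Glud1 they were Klhl7 (0.93), Stard7 (0.93) and Cluh (0.92), a factor that binds mRNAs of mitochondrial proteins. For Got2 they were Dld, a subunit of pyruvate and 2-oxoglutarate dehydrogenase (0.85), Actn2 (0.84) and Atp5b, of ATP synthase (0.84). For Got1 they were Ankrd32 (0.88), Sod2, mitochondrial superoxide dismutase (0.84), and Cblb (0.83), and for Gpt they were Mrps35, a mitochondrial ribosomal protein (0.86), Zfp326 (0.86) and Hnrnpa3 (0.85).

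The 4 more variable genes had other neighbours. For Glul they were Plin4, a lipid droplet coat protein (0.89), Xdh, xanthine dehydrogenase (0.87), and Tnip2 (0.85). For Gpt2 they were Gpr146 (0.86), Lrfn4 (0.86) and Atp6v1b2, of the lysosomal proton pump (0.84). For Slc38a2 they were Irf2bp2 (0.89), Ypel2 (0.87) and Tbc1d1, a Rab regulator of glucose transport (0.87). For Slc1a5 they were Cebpa, a factor of adipocyte differentiation (0.92), Ccdc80 (0.87) and Sptlc2, of sphingolipid synthesis (0.87).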

How the data were processed

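Polyadenylated RNA of mouse quadriceps was measured in 8 KO and 8 WT libraries. The submitters' processing notes list STAR, Salmon, bcl2fastq (4.0.3) and the GRCm38 build. No source used here gives the annotation, the strand setting or a version for STAR or Salmon. The values deposited by the authors are estimated counts per gene, not scaled to depth, with 16065394 to 51881258 per library. They were rounded to whole numbers here, since 11.1% were not whole.

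The 9 genes, the related gene lists and the libraries left out in alternatives were chosen with earlier results of these data known. KO and WT were compared with edgeR 4.0.16 (quasi-likelihood F test, TMM scaling, default low-count filter, no covariate, R 4.3.3) over 13792 genes, with Benjamini-Hochberg adjustment over all of them and a threshold of 0.05. CPM used TMM-scaled library sizes. TPM was computed from CPM and the exonic length of each gene in GENCODE vM21 (GRCm38), with all annotated exons of the gene merged. Correlations used log2(CPM + 0.5), with two-sided permutation tests of 100000 resamples and adjustment within each family. Named besides the 9 genes were, for each, the 3 most alike genes with a mean of at least 1 CPM and no predicted-gene symbol, and in each related list any called gene, the 2 with the highest CPM and the 1 with the smallest p. One gene that this rule names is not reported here. Promoter windows came from RefSeq (GRCm38.p6), with a window for 7 of the 9 genes. On simulated KO versus WT counts of 13668 genes, the edgeR test recovered 56%, 84% and 94% of genes with 1.25-, 1.5- and 2-fold changes. Far more genes were changed there than passed in the data, which makes the adjustment less strict. The changed genes were drawn from all genes with a mean of at least 1 CPM. These shares therefore do not give how often such a change would be called in the 9 genes. Alternatives were other scalings, filters, DESeq2 1.42.0, limma 3.58.1, covariates, a replicate block and libraries left out. Since the labels do not tie samples to animals, the spread behind each p-value is that between samples, which may be technical.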

Additional observations from a re-analysis of the deposited data

Results flagged for a closer look

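In WT, Got2 in library 3 stood below the other 7, at 368 CPM where the next lowest was 422 CPM. The gap took 0.598 of the whole range of the group on the log2 scale, above Dixon's 95% critical value for 8 samples. With 18 groups examined, chance flags about 1 in 20, so a single case is no more than chance gives. WT library 3 was also the deepest, with 51881258 estimated counts, and its Glul was the highest of all 16 libraries at 429 CPM. Over all libraries the r of Got2 with log2 library total was -0.59 (permutation p = 0.0181, adjusted p = 0.244 over 27 pairs; rho = -0.37, permutation p = 0.157, n = 16), and its part in the low value was not tested. Without WT 3 the log2 fold change of Got2 was 0.07 in place of 0.10.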

How the results depend on the processing

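None of the 9 genes and none of the 50 related genes were called in any of the 26 alternative fits. The count of called genes over the whole table, 6, was 2 with DESeq2 size factors, with the replicate block or without KO libraries 1, 3, 5 and 8, 3 with no low-count filter, 26 with a covariate for RNA lacking a poly(A) tail and 96 with DESeq2 (15 higher, 81 lower). Leaving out 1 library gave 2 to 8. The cause was not tested. The labels do not say whether their numbers pair the libraries. Same-numbered libraries had correlations of deviations from -0.08 to 0.32, and 2 of 8 KO libraries were closest to their own number. Such values cannot exclude a pairing. Signs were kept in all alternatives for 7 of the 9 genes. The log2 fold change of Glul was 0.0017 with the covariate, 0.13 without KO 1, 3, 5 and 8, and -0.26 to 0.016 over fits leaving out single libraries, where that of Oat was -0.022 to 0.029. The number of the 36 gene pairs that passed, 5 with all libraries, was 2 without KO 1, 3, 5 and 8 and 3 to 6 without 1 library. It was 3 without any 1 of KO 1, 3, 4, 5, 6 or 8 or WT 1, 2, 4, 6 or 7. The number of the 36 gene and list pairs that passed, 4 with all libraries, was 0 without KO 1, 3, 5 and 8 and 1 to 6 without 1 library (1 without WT 7, 2 without WT 4). These counts do not say which pairs passed. Gpt and Slc1a5, the lowest of the 9, rest on the fewest counts.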

Other observations

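After the values were seen, the 9 genes were also compared with 8 lists of cell type markers, 72 pairs in all over 16 libraries. Slc1a5 went with adipocyte markers (r = 0.79, permutation p = 0.00029, adjusted p = 0.0169; rho = 0.64, permutation p = 0.00903) and with fibro-adipogenic markers (r = 0.78, permutation p = 0.00047, adjusted p = 0.0169; rho = 0.72, permutation p = 0.00204). Without KO 7 and WT 8, the 2 libraries farthest from the median of Slc1a5, these were 0.64 and 0.61. Within KO they were 0.78 and 0.86, and within WT 0.82 and 0.69. With macrophage markers (listed below) Slc1a5 had r = 0.58 (permutation p = 0.0178, adjusted p = 0.145, rho = 0.54, permutation p = 0.0312) and did not pass. With the RNA integrity number its r was 0.52 (permutation p = 0.0398, adjusted p = 0.344 over 27 pairs, rho = 0.31, permutation p = 0.236). The level of Slc1a5 in muscle fibres alone was not measured.

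Oat went against macrophage markers (Adgre1, Csf1r, Cd68, C1qa, Mrc1), with r = -0.71 (permutation p = 0.002, adjusted p = 0.048, rho = -0.67, permutation p = 0.00538), and -0.57 without KO 3 and WT 4. Glud1 had r = -0.56 with the same markers (permutation p = 0.0266, adjusted p = 0.159, rho = -0.55, permutation p = 0.0286) and did not pass. Nor did Oat with fibro-adipogenic markers, at r = -0.58 (permutation p = 0.0181, adjusted p = 0.145, rho = -0.54, permutation p = 0.0331). Only 3 of the 72 pairs passed, Slc1a5 with adipocyte and with fibro-adipogenic markers, and Oat with macrophage markers. The share of other genes that would pass with these markers was not computed. Summed macrophage markers ran from 56.4 to 132 CPM in KO and from 59.8 to 131 CPM in WT, so they did not separate the genotypes.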
